A study of Mus musculus with 18 samples.

Results

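The undifferentiated Hmga2 KO clone #1 (KO#1) was compared with wild-type (wt) mouse induced pluripotent stem cells (iPSCs) at 0 h, read here as before induction into epiblast-like cells (EpiLCs), although the treatment label names that induction for all samples. The members are 6 of the 18 RNA-seq libraries of the series, taken by their titles: 3 biological replicates of KO#1 at 0 h and 3 of wt cells at 0 h. The remaining libraries are wt cells and KO#1 after 24 h of induction and a further KO clone, KO#2, at both times, and they enter here only through the shared model fit and as values set beside those at 0 h. Both genotypes at 0 h were iPSCs cultured over mitotically inactivated fibroblast feeders in serum with leukaemia inhibitory factor (LIF) and inhibitors of MEK and GSK3. By their source names the wt libraries all come from wt iPSC #1 and the KO#1 libraries all from 1 KO clone, so that genotype and clone cannot be told apart in this comparison. How the Hmga2 allele was inactivated, and which part of the gene it lacks, is not given in the sources used here.

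Hmga2 and its relative Hmga1 are small chromatin proteins that bind AT-rich DNA in the minor groove through AT-hooks and bend it. Hmga2 is known as a let-7 target that is high in embryonic cells and rises when pluripotent cells leave the naive state. Naive cells, the state that LIF with MEK and GSK3 inhibitors holds, use Nanog, Esrrb, Klf4 and Tfcp2l1 beside Pou5f1 and Sox2. On the way to the primed epiblast, Otx2, Fgf5, Pou3f1 and the de novo DNA methyltransferases come on. Cultured mouse pluripotent cells are also known to gain whole chromosomes, with chromosome 8 among the commonest, and cells grown on feeders carry some fibroblast RNA into the library. For these reasons the genes of chromosome 8 and a list of fibroblast genes were kept apart from all other genes.

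Total counts per library at 0 h ran from 3466436 to 14613617, and a floor of 3 counts was worth 0.175 to 0.983 CPM. CPM here are counts relative to a library total that was scaled by its TMM factor, and such floors cover counting error only. Pearson correlations of log2 CPM averaged 0.951 between wt libraries, 0.945 between KO#1 libraries and 0.922 between the genotypes. The defining markers of the labelled cell type were present in all 6 libraries. Pou5f1 stood at 1464, 1079 and 885 CPM in wt replicates 1, 2 and 3 and at 1014, 1255 and 1109 CPM in KO#1, Sox2 at 349, 247 and 375 and 229, 249 and 214 CPM, and Nanog at 392, 539.8 and 512 and 474, 593 and 957 CPM. Of the 9 core pluripotency genes on the list, 0 were called by edgeR or DESeq2 and 1 had an unadjusted p under 0.05. The p-values of the fit rest on 1 estimate of spread over the 18 libraries, taken between replicates of the same line or clone, and do not measure variation between clones.

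The targeted gene was lower in every KO#1 library than in every wt library. The difference did not pass the test across all genes in the main fit, which had a filter on low counts, but passed in some alternatives. Hmga2 (ENSMUSG00000056758) lies at chr10:120361275-120476469 of GRCm38, minus strand, where the annotation also places the antisense genes 1700006J14Rik and 9230105E05Rik and Mir763 on its own strand. In wt replicates 1, 2 and 3 it had 17.4, 13.3 and 22.3 CPM, from 53, 145 and 268 counts. In KO#1 it had 10.2, 4.59 and 1.75 CPM, from 78, 22 and 30 counts. The groups did not overlap, and the KO#1 libraries differed more among themselves, relative to their level, than the wt libraries. The log2 fold change was -1.71 (SE 0.63, 95% confidence interval -3.04 to -0.39, adjusted p = 0.124, edgeR quasi-likelihood test). The KO#1 libraries kept the order of their fibroblast signal: the mean log2 CPM of 8 defining fibroblast genes was 4.84, 4.25 and 3.44 in KO#1 replicates 1, 2 and 3. The wt libraries did not, with scores of 4.08, 3.71 and 2.72 and the highest Hmga2 level in the library with the lowest score. Whether the remaining Hmga2 reads of KO#1 come from fibroblasts was not tested. With that fibroblast score as a covariate the log2 fold change was -2.76 (adjusted p = 0.00763), and without KO#1 replicate 1, the library with the highest score, it was -2.59 (adjusted p = 0.0437). Without KO#1 replicate 3 it was -1.24 (adjusted p = 0.340) and without wt replicate 3 it was -1.49 (adjusted p = 0.324). Without a filter on low counts Hmga2 was called at -1.71 (adjusted p = 0.000524). Counts do not show which transcript the remaining reads belong to. The wt mean of Hmga2 was 17.7 CPM at 0 h and 5.76 CPM at 24 h, lower after induction, unlike the known rise named above. That wt difference was not tested here. Of 44 genes tested within 5 Mb of Hmga2, 1 was called higher and 1 lower (4.55% called, against 6.67% of all genes), Msrb3 (log2 fold change 1.55) and Irak3 (-3.14, adjusted p = 0.000126 in edgeR's test).

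Across the genome the clones differed at many genes. Of 16619 genes tested, 1108 were called at an adjusted p under 0.05 (6.67%), 663 of them higher in KO#1 (3.99%) and 445 lower (2.68%), and 3299 had an unadjusted p under 0.05. Of the genes called, 1063 (95.9%) had no overlap between the 3 KO#1 and the 3 wt libraries, against 20.5% of all genes tested. The genes divided into 818 on chromosome 8, 52 on the fibroblast list, of which 2 are also on chromosome 8, and 15751 others. Chromosome 8 held 96 genes called higher and 5 lower, the fibroblast list 4 and 0, and the other genes 564 and 440. The count depended on single libraries and on the fit. Without wt replicate 3 it was 598 genes and without wt replicate 2 it was 744, and a fit to the 6 libraries alone called 441, of which 433 were among the 1108. In all 6 fits that each left out 1 library, 434 of the 1108 genes were called. With library totals alone in place of TMM factors, the median of all genes moved to 0.16, from 0.02, and 71.3% of 801 called genes were higher, against 59.8%.

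Chromosome 8 genes stood above the rest of the genome as a whole. Their median log2 fold change was 0.50 (0.49 with the 9 genes without any count in 1 group set to their bound), and 79.8% of them were positive. The medians of the other 18 autosomes and of the X chromosome lay between -0.11 and 0.07. Among the 577 chromosome 8 genes with a mean of at least 4 CPM the median was 0.53 and 85.8% were positive, against 49.7% of 9432 such genes of the other autosomes. The share called higher was 11.7% on chromosome 8, against 1.63% to 6.39% on each of the other autosomes and the X chromosome, and 0.611% was called lower.

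**Figure D1:**
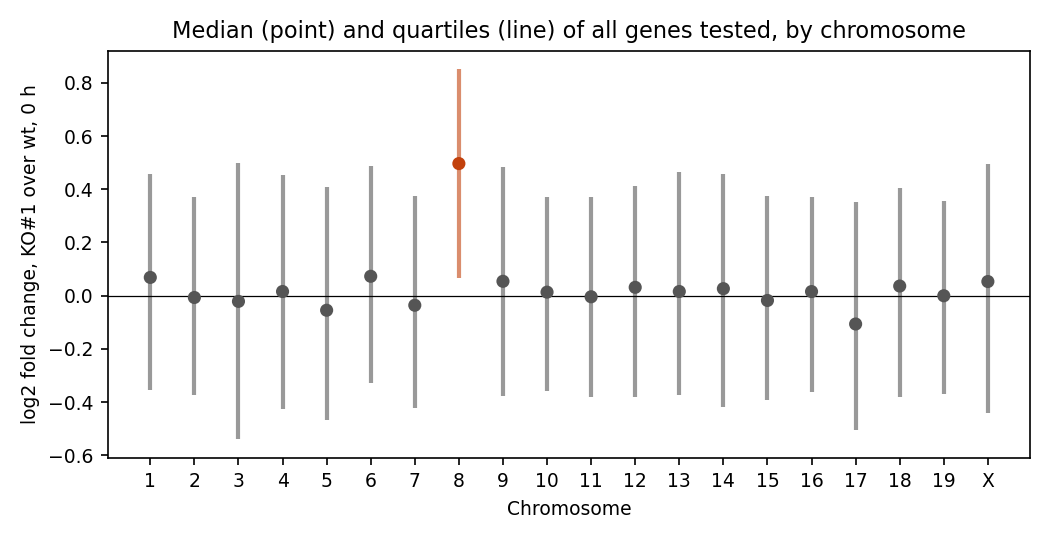
Median (point) and quartiles (vertical line) of the log2 fold change of KO#1 over wt at 0 h for all genes tested on each chromosome, with chromosomes Y and M left out. Chromosome 8, in orange, has a median of 0.50, while the other medians lie between -0.11 and 0.07.

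The shift ran along the whole chromosome and through all levels of expression. In 13 windows of 10 Mb the median log2 fold change was between 0.24 and 0.71, with the lowest value from 30 to 40 Mb (33 genes) and the highest from 20 to 30 Mb (63 genes, 16 of them called higher). Among genes of 16 to 64 CPM, 93.0% of 258 chromosome 8 genes were positive, against 50.7% of 4090 genes of the other autosomes. Below 1 CPM these shares were 63.2% of 133 and 51.4% of 3272 genes. Protein-coding genes of chromosome 8 took 4.85%, 4.43% and 4.65% of all protein-coding counts in wt replicates 1, 2 and 3 and 6.79%, 6.61% and 6.14% in KO#1.

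Each KO#1 library showed the shift by itself. The median log2 ratio of chromosome 8 genes to wt libraries, minus that of the other autosomes, was 0.51, 0.49 and 0.53 in KO#1 replicates 1, 2 and 3, a mean of 0.51 ± 0.02 (SD, n = 3) or 1.42-fold. Each wt library set against the other wt libraries gave 0.08, -0.10 and 0.04. The 3 KO#1 libraries at 24 h, compared with wt libraries of 24 h, gave 0.47, 0.48 and 0.56. The libraries labelled KO#2 lay on the other side of 0, between -0.19 and -0.17 at 0 h and between -0.12 and -0.06 at 24 h. The highest wt library and the lowest KO#1 library were thus far apart at both times. DNA copy number was not tested.

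**Figure D2:**
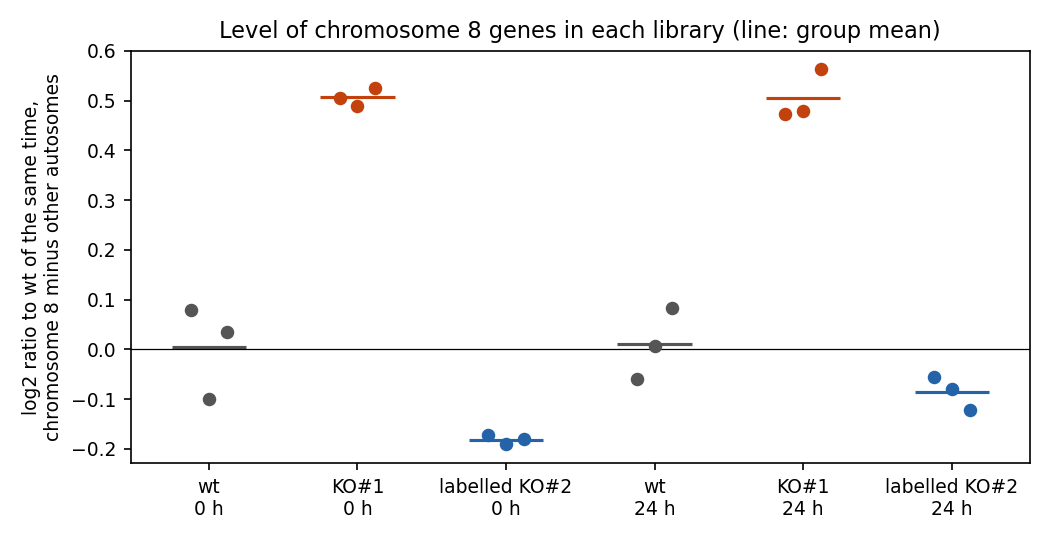
Median log2 ratio of chromosome 8 genes to the wt libraries of the same time, minus the same for the other autosomes, in each of the 18 libraries (points, genes of at least 4 CPM) with the group mean (line). KO#1 libraries lie between 0.47 and 0.56 at both times, and all others lie below 0.09.

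The 96 chromosome 8 genes called higher had log2 fold changes from 0.70 to 7.06 with a median of 1.2, and in 93 of them the libraries did not overlap. Well-expressed members included housekeeping genes of several compartments. Gabarapl2, an autophagy protein of the Atg8 family, had 82.6, 87.1 and 78.8 CPM in wt replicates 1, 2 and 3 and 286, 302 and 819 CPM in KO#1 (log2 fold change 2.50, SE 0.41, adjusted p = 0.000843, edgeR). KO#1 replicate 3 was the highest, and all KO#1 libraries exceeded all wt libraries, which the naming rule required. Kars, the lysyl-tRNA synthetase, had 138, 141 and 128 CPM in wt cells and 307, 304 and 339.6 CPM in KO#1 (log2 fold change 1.23, SE 0.24, adjusted p = 0.00317). Ddx39, an RNA helicase of mRNA export, had 112, 106 and 112 and 264, 200.5 and 354 CPM (log2 fold change 1.31, adjusted p = 0.00355). The ER chaperone Calr rose by 0.99 on the log2 scale (adjusted p = 0.0356), Smarca5, the ATPase of ISWI remodellers, by 0.98 (adjusted p = 0.0143), the arginine methyltransferase Prmt7 by 0.99 (adjusted p = 0.0113), the translation repressor Eif4ebp1 by 0.86 (adjusted p = 0.0470) and the nuclear pore scaffold Nup93 by 0.75 (adjusted p = 0.0237). Calls near the size of the shift were easily lost, in edgeR fits that left out 1 library each: Calr without wt 2 or 3 or KO#1 1 or 3 (adjusted p = 0.0772 to 0.154), Smarca5 without wt 1 or 3 or KO#1 2 (adjusted p = 0.0553 to 0.0841), Prmt7 without wt 1 or KO#1 3 (adjusted p = 0.0507 to 0.0613), Eif4ebp1 without wt 1, 2 or 3 or KO#1 2 or 3 (adjusted p = 0.0895 to 0.165) and Nup93 without wt 1, 2 or 3 or KO#1 3 (adjusted p = 0.0513 to 0.101). The number of chromosome 8 genes called higher was 46 without wt replicate 3, 63 without wt replicate 2 and 32 in the fit to 6 libraries alone, and the median kept between 0.43 and 0.51 in all 6 fits with 1 library left out.

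A few chromosome 8 genes went the other way. Cyba, the p22-phox subunit of NADPH oxidase, had 16.7, 22.8 and 27.6 CPM in wt cells and 8.34, 8.97 and 6.94 CPM in KO#1 (log2 fold change -1.49, SE 0.26, adjusted p = 0.00151, edgeR). Every KO#1 library was below every wt library, which the naming rule required. Zfp423, a zinc finger transcription factor, had 4.92, 2.57 and 5.08 CPM and 1.17, 1.04 and 0.758 CPM (log2 fold change -2.10), and Nudt7, a peroxisomal coenzyme A hydrolase, had 1.31, 1.38 and 0.917 and 0.261, 0.209 and 0.408 CPM (adjusted p = 0.0464), with a KO#1 mean under the mean floor, and no fold is given. Mcf2l, a guanine nucleotide exchange factor, fell by 1.32 on the log2 scale (adjusted p = 0.0447), a call that was lost without wt replicate 2 or 3 or KO#1 replicate 1 or 3 (adjusted p = 0.116 to 0.182). The fifth, Trmt9b, had 0, 0.459 and 0.333 CPM in wt cells and 0 in KO#1, group means under the mean floor of each group, and no fold is given. Cyba and Mcf2l follow the naming rule, and the other three are named because there were only 5.

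Fibroblast genes were somewhat higher in KO#1 libraries, with a spread as wide as the difference. The 52 listed genes had a median log2 fold change of 0.59 (0.56 with Dcn at its bound), 45 of them were positive, 14 had an unadjusted p under 0.05, and 4 were called higher, or 7.69%, and 0 lower. Over all 16619 genes 3.99% were called higher and 6.67% in either direction, and 3299 had an unadjusted p under 0.05. Their summed level was 1252, 1015 and 626 CPM in wt replicates 1, 2 and 3 and 1880, 1296 and 821 CPM in KO#1. Group means were 964 ± 316 and 1332 ± 530 CPM (SD, n = 3 each), and the ranges overlapped. In both genotypes the sum fell from replicate 1 to replicate 3, and KO#1 was above wt at each replicate number. Of the 8 defining genes, 0 were called by edgeR or DESeq2 and 2 had an unadjusted p under 0.05. Collagen Col1a1 had 166, 79.6 and 27.1 CPM in wt and 166, 127 and 21.7 CPM in KO#1, Col3a1 31.1, 26.1 and 9.0 and 44.1, 37.8 and 9.51 CPM, and Dcn was at 0 in all wt libraries and at 0.261, 0 and 0.408 CPM in KO#1, with both group means under the mean floor of their libraries. In bulk RNA, more fibroblasts and more RNA per fibroblast cannot be told apart.

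The 4 fibroblast-list genes called were contractile or matrix genes. Cald1, an actin-binding regulator of contraction, had 24.2, 17.3 and 9.42 CPM in wt cells and 71.2, 48.8 and 34.3 CPM in KO#1 (log2 fold change 1.63, SE 0.32, adjusted p = 0.00401, edgeR). Mmp2, a matrix protease encoded on chromosome 8, had 7.87, 5.69 and 4.42 and 20.3, 16.9 and 11.4 CPM (log2 fold change 1.47, adjusted p = 0.0103). The protease inhibitor Timp3 had 12.4, 8.90 and 7.83 and 43.5, 10.0 and 42.0 CPM (log2 fold change 1.76, adjusted p = 0.0184), and the elastic fibre protein Fbln5 had 1.64, 2.66 and 3.50 and 11.1, 7.93 and 4.84 CPM (1.53, adjusted p = 0.0302). The groups did not overlap for Cald1, Mmp2 and Fbln5, while KO#1 replicate 2 lay inside the wt range for Timp3. Leaving out 1 library ended these calls: Mmp2 without wt 3 (adjusted p = 0.0768), Timp3 without wt 2 or 3 or KO#1 1 or 3 (adjusted p = 0.0701 to 0.104) and Fbln5 without wt 1, 2 or 3 or KO#1 1 or 2 (adjusted p = 0.0558 to 0.132). Without wt replicate 3 the list held 1 called gene, without wt replicate 2 it held 2, and the fit to 6 libraries alone called 0. Dcn, Lum and Il6 had the largest fitted changes but lay at or under about 1 CPM in all 6 libraries, and no fold is given. With the fibroblast score as a covariate, 1140 genes were called in all, of which 939 were among the 1108. Beyond this covariate, the part of fibroblast RNA in the other results was not tested.

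Outside chromosome 8 and the fibroblast list, the largest falls among genes with a mean of at least 4 CPM over the 6 libraries took genes from clear expression to near nothing. Olig2, a basic helix-loop-helix factor of motor neurons and oligodendrocytes (chr16:91225457-91228677), had 35.7, 19.2 and 22.1 CPM in wt replicates 1, 2 and 3 and no count in any KO#1 library, at least 64.6-fold lower against a floor of 3 counts per library. Its neighbour Olig1, of the same family and lineage (chr16:91269772-91271933), had 28.5, 11.1 and 15.3 CPM in wt cells and 0.521, 0 and 0.233 CPM in KO#1 (adjusted p = 2.73e-05, edgeR). The KO#1 mean of Olig1, 0.251 CPM, lay under the KO#1 mean floor of 0.397 CPM, and no fold is given for it. No KO#1 library came near the lowest wt library for either gene. Ubd, a ubiquitin-like modifier, had 7.21, 12.6 and 8.17 CPM in wt cells and no count in KO#1, at least 23.4-fold lower.

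Other genes fell far below the wt level without going to 0. Nod1, a cytosolic sensor of bacterial peptidoglycan, had 61.6, 22.7 and 44.6 CPM in wt cells and 0.912, 0.626 and 0.700 CPM in KO#1 (log2 fold change -5.82, SE 0.44, adjusted p = 1.03e-07, edgeR). Sox11, a SoxC transcription factor of neural progenitors, had 79.3, 44.6 and 50.5 and 1.95, 2.09 and 1.75 CPM (log2 fold change -4.92, SE 0.33, adjusted p = 2.36e-08). Both were low in all 3 KO#1 libraries with little spread. Spry2, a feedback inhibitor of receptor tyrosine kinase signalling, had 159, 97.2 and 144 CPM in wt cells and 20.3, 12.7 and 9.80 CPM in KO#1 (log2 fold change -3.23, SE 0.27, adjusted p = 2.54e-07). The unconventional myosins Myo1f (16.4, 8.62 and 10.4 against 0.130, 0.209 and 0.175 CPM) and Myo7a (52.1, 29.6 and 38.4 against 3.00, 2.09 and 1.28 CPM) were lower as well. The CaMKII inhibitor Camk2n1 fell by 4.8 on the log2 scale, the microtubule-associated ubiquitin ligase Mid1 by 3.66, the membrane glycoprotein Emb by 3.48 and the cell cycle regulator Rgcc by 3.36, all with an adjusted p of at most 0.000451 in edgeR. These 12 calls held in all alternatives that tested the gene.

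Among genes with a mean of at least 4 CPM over the 6 libraries, the largest rises mixed genes of defined tissues with copies of other genes. Baiap2l1, an actin regulator of the I-BAR family, had 2.29, 1.38 and 2.00 CPM in wt replicates 1, 2 and 3 and 128, 125 and 216 CPM in KO#1 (log2 fold change 6.43, SE 0.39, adjusted p = 1.27e-08, edgeR), in a region shared with Bri3 on the other strand. Art3, of the ADP-ribosyltransferase family, had 0, 0.550 and 0.333 and 25.5, 36.5 and 21.1 CPM (adjusted p = 9.31e-07, edgeR). Its wt mean of 0.295 CPM lay under the wt mean floor of 0.503 CPM, and no fold is given. Art3 overlaps the chemokine genes Cxcl10 and Cxcl11 on the other strand. Ehd3, an ATPase of endocytic recycling, had 1.31, 2.02 and 3.42 and 43.4, 58.4 and 47.5 CPM (log2 fold change 4.35, SE 0.31, adjusted p = 4.35e-08). In these 3 genes the lowest KO#1 library was far above the highest wt library. Smyd1, a methyltransferase of heart and skeletal muscle, had 1.64, 0.367 and 0.834 and 19.4, 12.5 and 32.5 CPM, and Actn2, the actinin of the sarcomere, had 0.655, 0.367 and 0.333 and 2.73, 3.96 and 20.9 CPM, with KO#1 replicate 3 well above the others. Aass, of lysine degradation, and Bhmt, of homocysteine methylation, went from under 1 CPM in each wt library to 6.77, 9.18 and 11.6 and to 3.78, 9.18 and 18.6 CPM in KO#1. The rest of the 12 were the predicted genes Gm10260 (3.28, 5.60 and 2.25 against 389, 434 and 576 CPM), Gm4737 and C130073F10Rik and the copies Eno1b and Hmga1b.

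**Figure D3:**
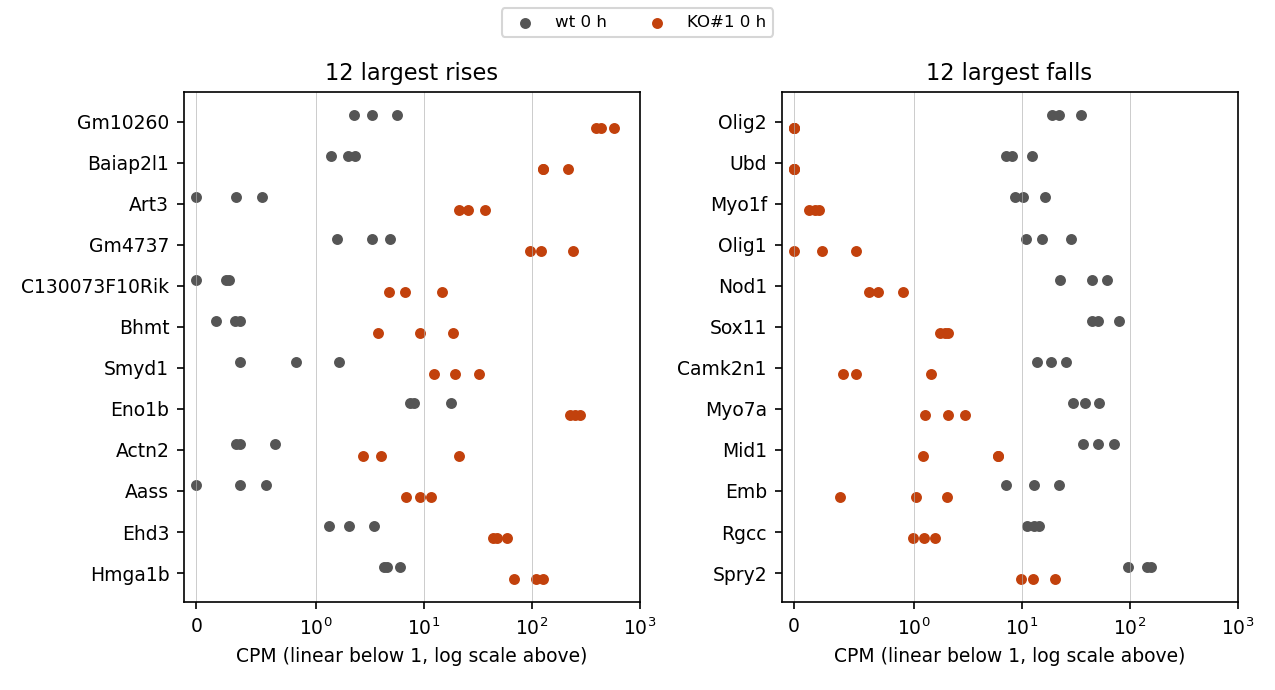
Level in each library at 0 h (points; grey wt, orange KO#1) of the 12 protein-coding genes with the largest rises and the 12 with the largest falls among called genes with a mean of at least 4 CPM and no overlap between groups, outside chromosome 8 and the fibroblast list, in CPM on an axis that is linear below 1 and logarithmic above. Olig2 and Ubd are at 0 in all 3 KO#1 libraries.

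Promoters of 3 genes that fell and 2 that rose are shown, since these genes were among those with the largest changes, and with them those of Hmga1 and its copy, described next. Each runs from 250 bases before to 50 after a RefSeq start site of GRCm38.p6, 5′ to 3′ on the strand of the gene, with the dinucleotide CG, the target of DNA methylation, in capitals. They lie at chr16:91225300-91225599, plus strand (Olig2), chr12:27342669-27342968, minus strand (Sox11), chr6:54972563-54972862, minus strand (Nod1), chr5:144358063-144358362, minus strand (Baiap2l1), chr5:92331577-92331876, plus strand (Art3), chr17:27556324-27556623, plus strand (Hmga1) and chr11:120762544-120762843, plus strand (Hmga1b).
Olig2: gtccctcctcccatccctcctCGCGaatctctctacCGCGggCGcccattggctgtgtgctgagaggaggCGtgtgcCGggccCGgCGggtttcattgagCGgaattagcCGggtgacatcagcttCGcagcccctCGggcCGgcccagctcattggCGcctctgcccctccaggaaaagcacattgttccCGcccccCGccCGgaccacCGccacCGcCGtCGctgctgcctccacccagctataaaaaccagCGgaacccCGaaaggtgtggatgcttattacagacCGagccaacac
Sox11: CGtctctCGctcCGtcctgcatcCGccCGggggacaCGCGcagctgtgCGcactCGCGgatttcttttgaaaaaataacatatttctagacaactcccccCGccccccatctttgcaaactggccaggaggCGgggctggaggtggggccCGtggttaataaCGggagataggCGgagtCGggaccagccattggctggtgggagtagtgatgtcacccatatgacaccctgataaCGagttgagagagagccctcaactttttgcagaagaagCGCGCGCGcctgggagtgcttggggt
Nod1: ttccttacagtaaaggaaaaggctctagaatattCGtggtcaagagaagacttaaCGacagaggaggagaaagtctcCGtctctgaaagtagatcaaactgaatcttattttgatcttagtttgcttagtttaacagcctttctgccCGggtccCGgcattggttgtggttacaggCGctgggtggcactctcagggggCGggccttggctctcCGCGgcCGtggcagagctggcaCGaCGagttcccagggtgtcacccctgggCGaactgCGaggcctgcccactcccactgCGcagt
Baiap2l1: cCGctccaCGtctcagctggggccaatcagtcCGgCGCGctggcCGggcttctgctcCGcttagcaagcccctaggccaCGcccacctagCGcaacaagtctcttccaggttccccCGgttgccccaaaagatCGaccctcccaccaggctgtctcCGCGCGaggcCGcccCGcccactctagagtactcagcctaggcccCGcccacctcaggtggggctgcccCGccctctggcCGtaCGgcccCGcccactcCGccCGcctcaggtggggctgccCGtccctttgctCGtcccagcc
Art3: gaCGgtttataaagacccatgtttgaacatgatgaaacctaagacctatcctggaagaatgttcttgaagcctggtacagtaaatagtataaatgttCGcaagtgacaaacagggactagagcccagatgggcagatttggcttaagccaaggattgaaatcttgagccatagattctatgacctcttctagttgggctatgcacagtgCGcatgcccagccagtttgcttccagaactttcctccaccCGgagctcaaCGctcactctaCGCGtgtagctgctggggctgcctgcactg
Hmga1: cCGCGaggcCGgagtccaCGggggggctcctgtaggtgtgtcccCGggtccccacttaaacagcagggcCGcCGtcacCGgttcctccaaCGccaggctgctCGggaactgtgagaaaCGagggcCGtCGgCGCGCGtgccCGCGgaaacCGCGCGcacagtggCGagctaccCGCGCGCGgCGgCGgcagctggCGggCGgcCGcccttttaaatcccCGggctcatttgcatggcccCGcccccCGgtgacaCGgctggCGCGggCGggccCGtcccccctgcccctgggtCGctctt
Hmga1b: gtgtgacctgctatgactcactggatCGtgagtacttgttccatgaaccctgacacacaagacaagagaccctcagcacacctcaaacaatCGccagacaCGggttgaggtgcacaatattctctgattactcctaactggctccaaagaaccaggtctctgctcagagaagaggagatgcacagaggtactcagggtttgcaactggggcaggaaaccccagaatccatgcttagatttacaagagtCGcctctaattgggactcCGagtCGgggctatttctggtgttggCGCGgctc
CG occurred 25 times in the Olig2 promoter, 21 times in that of Sox11, 15 in that of Nod1, 25 in that of Baiap2l1 and 7 in that of Art3. CG reads the same on both strands. Of the 32851 promoters of this length in the RefSeq table, 94.6% hold at least 1, and the median is 7. Genes that fell and genes that rose thus both include promoters dense in CG. The promoters of Hmga1 and Hmga1b held 40 and 8, and their A and T made up 26.0% and 48.7% of the bases. DNA methylation was not measured in these libraries.

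Hmga1, the closest relative of Hmga2, fell while a copy of it rose. Hmga1 (chr17:27556497-27563674) had 435, 338 and 278 CPM in wt replicates 1, 2 and 3 and 86.7, 142 and 56.9 CPM in KO#1 (log2 fold change -1.88, SE 0.37, adjusted p = 0.00415, edgeR). Hmga1b, a copy of Hmga1 with a gene model of 1626 exonic bases on chromosome 11, had 4.26, 6.05 and 4.58 and 68.9, 128 and 109 CPM (log2 fold change 4.33, SE 0.33, adjusted p = 9.72e-08). All wt libraries were high in Hmga1 and low in Hmga1b, and all KO#1 libraries held both. The summed level was 439.5, 344 and 282 CPM in wt cells and 156, 270.0 and 166 CPM in KO#1, 0.555 times the wt mean, against 0.272 times for Hmga1 alone. Reads from near-identical copies can be assigned to either, and the values of each member of such a pair are uncertain for that reason. Sequence differences between the clones were not tested.

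Other copies rose too, and those given here were chosen after their values were seen. Eno1b, a copy of the enolase gene Eno1, had 17.7, 7.43 and 8.17 CPM in wt cells and 224, 251 and 280.2 CPM in KO#1 (log2 fold change 4.56, SE 0.38, adjusted p = 2.78e-07, edgeR), while Eno1 had 1223, 1139 and 1148 and 710.1, 752 and 929.8 CPM (adjusted p = 0.275). Their sum was 1241, 1146 and 1156 CPM in wt cells and 934, 1004 and 1210.0 CPM in KO#1, 0.888 times the wt mean, with overlapping ranges. Rpl15-ps2, a processed pseudogene of the ribosomal protein gene Rpl15, had 1 count in wt cells and 2179 in KO#1, a ratio of 1909 (95% counting interval 342 to 75450), at 40.8, 39.4 and 97.8 CPM in KO#1. The sum with Rpl15 was 422, 976 and 801 CPM in wt cells and 483, 546 and 1156 CPM in KO#1, 0.993 times the wt mean. Rps15a-ps8 had no count in wt cells and 8.60, 9.60 and 10.6 CPM in KO#1, at least 19-fold higher, and its sum with Rps15a was 0.960 times the wt mean. Rpl15 alone had 733 ± 283 CPM in wt cells and 669 ± 339 CPM in KO#1, and Rps15a 347 ± 139 and 323 ± 104 CPM (SD, n = 3 each). These spreads exceed the mean level of each copy in KO#1, so that the sums with Rpl15 and Rps15a cannot show whether a total was kept. Amd2, a copy of the S-adenosylmethionine decarboxylase gene Amd1, had 2 counts in wt cells and 162 in KO#1, a ratio of 71.0 (19.3 to 591). Its sum with Amd1 was 1.18 times the wt mean.

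**Figure D4:**
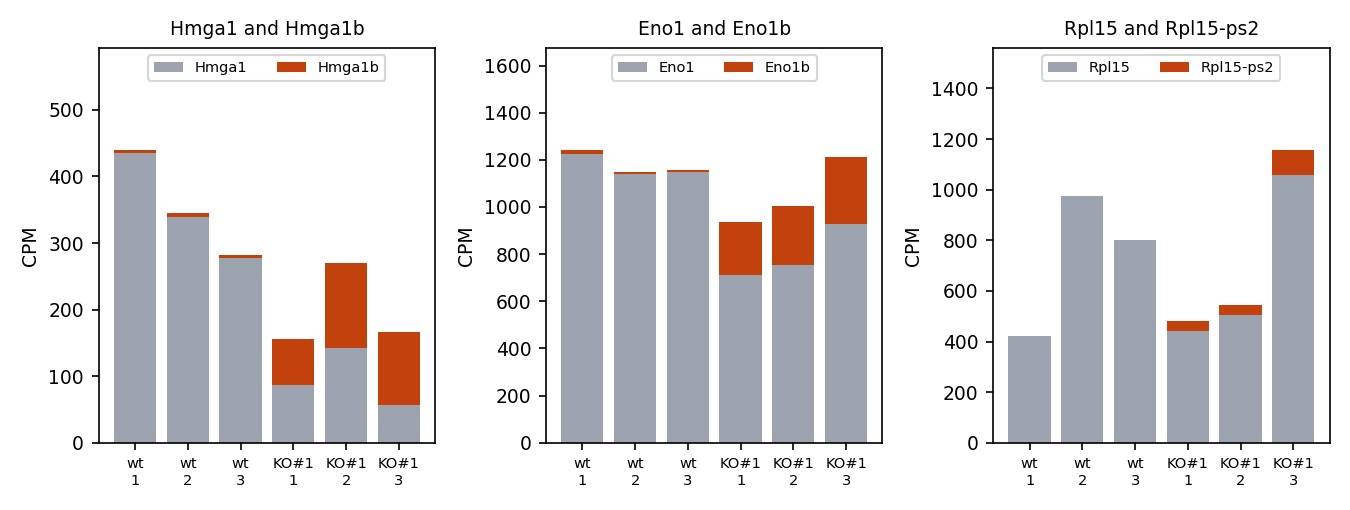
Level in each library at 0 h of 3 genes (grey) and their copies (orange, stacked on top), in CPM, for wt and KO#1 replicates 1 to 3. The copy Eno1b rises from at most 17.7 CPM in wt cells to at least 224 CPM in KO#1 while the stacked total changes less, and Hmga1 with Hmga1b stays below the wt range.

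Many processed pseudogenes were higher in KO#1. Of 761 tested, 93 were called higher (12.2%) and 8 lower (1.05%), against 529 (3.77%) and 396 (2.82%) of 14045 protein-coding genes. The 93 had a median log2 fold change of 4.14, with the 21 that lacked any count in 1 group set to their bound. Pseudogenes of all kinds together took 0.602% ± 0.0777 of the counts in wt libraries and 1.10% ± 0.262 in KO#1 (SD, n = 3 each). Among genes that are not protein-coding, the naming rule gave Gm8420, with no count in wt cells and 17.2, 22.1 and 14.1 CPM in KO#1 (at least 35.4-fold higher), Gm8885, with no count in wt cells and 26.1, 31.7 and 1.75 CPM in KO#1, and Rpl15-ps2. The largest falls were Gm25939, an snRNA gene within D230017M19Rik, from 450.3, 775 and 412 to 45.1, 21.7 and 16.7 CPM, the pseudogene Znf41-ps, from 8.85, 37.1 and 40.3 to 3.91, 1.88 and 3.50 CPM, and E330020D12Rik, from 8.52, 12.2 and 11.1 to 1.82, 0.626 and 1.17 CPM. Non-overlapping groups were a condition of the naming rule for each of these. Antisense and pseudogene counts depend on how the counting handled strand and multiply mapped reads, which is not given in the sources used here.

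Genes with at most 3 counts in each library of one group and at least 4 CPM in each of the other were few. Among protein-coding genes, 4 were off in KO#1 by this rule and 4 were off in wt cells, and none of them lay on chromosome 8. Beside Olig2 and Ubd, those off in KO#1 were Myo1f (ratio of wt to KO#1 61.4, 95% counting interval 26.0 to 191) and Apoa2, an apolipoprotein of high-density lipoprotein, with 5.24, 5.32 and 6.50 CPM in wt cells and 2 counts in KO#1 (ratio 86.7, interval 23.6 to 723). Those off in wt cells were Amd2, C130073F10Rik (ratio 47.9, interval 21.8 to 132), the phospholipase Pla2g4e, at 8.47, 4.8 and 7.99 CPM in KO#1 (ratio 197, interval 35.0 to 7822), and the sialyltransferase St8sia5, at 4.56, 7.09 and 4.43 CPM in KO#1 (ratio 127, interval 22.4 to 5053). Of genes that are not protein-coding, 0 were off in KO#1 and 7 in wt cells, and all 7 were processed pseudogenes.

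Of the let-7 and HMGA axis, 3 of 8 members were called, all lower (37.5%, against 2.68% of all genes). Beside Hmga1 these were Lin28a, the RNA-binding protein that blocks let-7 maturation, and Igf2bp2, an RNA-binding protein known as a target of Hmga2. Lin28a had 36.7, 73.4 and 84.2 CPM in wt replicates 1, 2 and 3 and 6.12, 13.8 and 29.2 CPM in KO#1 (log2 fold change -1.97, SE 0.48, adjusted p = 0.0174, edgeR). Igf2bp2 had 119, 94.9 and 114 and 50.3, 58.6 and 49.6 CPM (log2 fold change -1.05, SE 0.29, adjusted p = 0.0324). KO#1 libraries were below all wt libraries for both genes. Lin28b, Igf2bp1, Igf2bp3 and Dis3l2 were not called (log2 fold changes 0.06, -0.44, -0.13 and -0.19). The 8 members had a median of -0.74, against 0.02 over all genes. Leaving out 1 library ended 2 of the calls: Lin28a without wt 2 or 3 or KO#1 1 or 2 (adjusted p = 0.0525 to 0.0829) and Igf2bp2 without wt 1 or 3 or KO#1 1, 2 or 3 (adjusted p = 0.0590 to 0.107).

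Naive pluripotency genes split in direction. Of 13 members, 2 were called higher (15.4%, against 3.99% of all genes) and 2 lower (15.4%, against 2.68%), with a median log2 fold change of -0.37. Zfp42 (Rex1), a naive marker encoded on chromosome 8, had 38.0, 46.0 and 43.6 CPM in wt cells and 107, 106 and 148 CPM in KO#1 (log2 fold change 1.5, SE 0.27, adjusted p = 0.00187, edgeR). Dppa3 (Stella), a maternal and germ cell factor, had 2.62, 3.21 and 1.42 and 5.34, 4.59 and 21.4 CPM (log2 fold change 2.17, SE 0.55, adjusted p = 0.0216), and KO#1 replicate 3 was far above the other libraries. Nr0b1 (Dax1), an X-linked nuclear receptor, had 215, 200.4 and 216 and 120.2, 114 and 95.7 CPM (log2 fold change -0.94, SE 0.22, adjusted p = 0.0120), with little spread in both groups. Gbx2, a homeobox target of LIF and Stat3, had 18, 3.12 and 4.33 and 2.73, 1.46 and 1.75 CPM (log2 fold change -1.94, SE 0.50, adjusted p = 0.0232), and wt replicate 1 was far above the other wt libraries. Nanog, Esrrb, Klf4, Tfcp2l1 and Tbx3 were not called, with 95% confidence intervals of -0.48 to 1.45, -1.24 to 0.14, -1.54 to 0.21, -0.67 to 0.74 and -1.32 to 0.53 on the log2 scale. In fits with 1 library left out, calls were lost for Dppa3 without wt 1 or 3 or KO#1 3 (adjusted p = 0.0528 to 0.243), Nr0b1 without KO#1 3 (adjusted p = 0.0555) and Gbx2 without wt 1 or KO#1 2 or 3 (adjusted p = 0.0720 to 0.119). Without wt replicate 1 the log2 fold change of Gbx2 was -0.89, and without KO#1 replicate 3 that of Dppa3 was 1.06.

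Genes of the primed epiblast had 1 of 8 members called higher (12.5%, against 3.99% of all genes) and 2 lower (25%, against 2.68%), with a median log2 fold change of -0.95. Otx2, a homeobox factor of the epiblast, had 1.31, 4.59 and 4.75 CPM in wt cells and 6.25, 8.76 and 32.7 CPM in KO#1 (log2 fold change 2.07, SE 0.52, adjusted p = 0.0207, edgeR), and KO#1 replicate 3 was the highest by far. Without KO#1 replicate 3 the log2 fold change was 0.92 (adjusted p = 0.266). Pou3f1 (Oct6), a POU factor, had 7.21, 3.67 and 5.17 and 2.34, 1.88 and 1.34 CPM (log2 fold change -1.51, SE 0.43, adjusted p = 0.0417). Sox3 had 0.983, 0.550 and 0.583 and 0, 0.209 and 0.117 CPM, at most 0.983 CPM in any library, and was called lower (adjusted p = 0.0357). Fgf5, the usual marker of EpiLCs, was at 0, 0.183 and 0.417 CPM in wt cells and 0.521, 0 and 0 CPM in KO#1, under the floor of 3 counts in at least 1 library of each group. Leaving out 1 library ended the calls of Otx2 without wt 1, 2 or 3 or KO#1 3 (adjusted p = 0.0541 to 0.266), Pou3f1 without wt 1 or 3 or KO#1 1, 2 or 3 (adjusted p = 0.0555 to 0.194) and Sox3 without wt 1, 2 or 3 or KO#1 1 or 3 (adjusted p = 0.0648 to 0.126).

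Few members of the signalling lists were called, and those called were lower. Of the FGF-ERK list 15.4% were called and of the LIF-Stat3 list 10.0%, while the Wnt and Nodal lists (7.14% each) and the immediate early list (6.25%) lay near the 6.67% of all genes called. Over all genes 2.68% were called lower. Of 13 FGF-ERK genes, 0 were called higher and 2 lower, with a median of -0.46. These were Spry2 and Dusp6, the ERK phosphatase, with 14.8, 16.2 and 32.3 CPM in wt cells and 7.82, 7.51 and 5.31 CPM in KO#1 (log2 fold change -1.66, SE 0.30, adjusted p = 0.00161, edgeR). All KO#1 libraries were below all wt libraries. The ligand Fgf4 had 319, 342 and 456 and 254, 246 and 414 CPM, with overlapping groups, and Spry4, Dusp4, Dusp5, Etv4 and Etv5 were not called. Of 14 Wnt genes 1 was called, the Wnt deacylase Notum, with 37.4, 11.3 and 15.7 CPM in wt cells and 1.82, 2.09 and 3.91 CPM in KO#1 (log2 fold change -2.94, SE 0.44, adjusted p = 0.000321). Of 14 Nodal and Activin genes 1 was called, the inhibitory Smad7, with 231, 92.3 and 144 and 70.1, 64.5 and 23.1 CPM (log2 fold change -1.57, SE 0.46, adjusted p = 0.0442). Of 10 LIF-Stat3 genes 1 was called, Gbx2. Of 16 immediate early genes 1 was called, Fos, with 29.5, 32.4 and 176 CPM in wt cells, where replicate 3 stood apart, and 15.0, 9.81 and 19.4 CPM in KO#1 (log2 fold change -2.42, adjusted p = 0.0364). Without wt replicate 3 the log2 fold change of Fos was -1.06 (adjusted p = 0.426). Calls were also lost on leaving out 1 library for Smad7 without wt 1 or 3 or KO#1 1, 2 or 3 (adjusted p = 0.0519 to 0.178), Fos without wt 3 or KO#1 1, 2 or 3 (adjusted p = 0.0718 to 0.426) and Gbx2 without wt 1 or KO#1 2 or 3 (adjusted p = 0.0720 to 0.119).

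Of 9 genes of the DNA methylation machinery 2 were called, in opposite directions (22.2%, against 6.67% of all genes). The shares of the H3K9, imprinted and germline lists were 11.1%, 10.0% and 11.8%. Dnmt3l, the catalytically inactive partner of the de novo methyltransferases, had 100.3, 66.4 and 99.5 CPM in wt replicates 1, 2 and 3 and 239, 272 and 203 CPM in KO#1 (log2 fold change 1.43, SE 0.30, adjusted p = 0.00594, edgeR). Tdg, the glycosylase that removes oxidised methylcytosine, had 53.4, 49.5 and 51.8 and 16.9, 17.1 and 18.8 CPM (log2 fold change -1.55, SE 0.21, adjusted p = 0.000123). In both genes the libraries of each group lay close together and far from the other group. Dnmt1, Dnmt3a, Dnmt3b, Uhrf1 and Tet1 to Tet3 were not called. Of 9 genes of H3K9 methylation and HP1 1 was called lower, the methyltransferase Setdb1, with 232, 169.9 and 209.5 and 104, 89.5 and 139 CPM (log2 fold change -0.88, adjusted p = 0.0209). Of 30 imprinted genes, Snrpn was called higher (0.99, adjusted p = 0.0254) and Phlda2 and Magel2 lower. Phlda2, a growth regulator of the placenta, had 10.5, 5.78 and 6.0 CPM in wt cells and 0.912, 1.25 and 1.46 CPM in KO#1 (adjusted p = 0.000423), and Magel2 lay at or below 1.75 CPM in all 6 libraries. Of 17 germline genes under methylation control 2 were called higher, Rpl10l (19.3, 34 and 26.4 against 49.8, 54.9 and 84.9 CPM), which is itself a copy of a ribosomal protein gene, and Tex101, whose groups overlapped. The wt mean of Tex101, 0.211 CPM, lay under the wt mean floor of 0.503 CPM, and no fold is given for it. Leaving out 1 library ended the calls of Setdb1 without wt 1 or 3 or KO#1 1 or 2 (adjusted p = 0.0751 to 0.102), Snrpn without wt 1, 2 or 3 or KO#1 2 or 3 (adjusted p = 0.0599 to 0.0907), Magel2 without wt 3 (adjusted p = 0.0583), Rpl10l without wt 1 or 3 or KO#1 3 (adjusted p = 0.0799 to 0.102) and Tex101 without wt 1 or 3 or KO#1 1 or 3 (adjusted p = 0.0803 to 0.187).

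Polycomb repressive complex 2 (PRC2) and the nuclear lamina, which the study examined, showed no member called by edgeR at 0 h. PRC2 places H3K27me3. Of its 11 genes, 0 were called by edgeR, 1 had an unadjusted p under 0.05, and the median log2 fold change was 0.19. Suz12, its core subunit, had 104, 144 and 119.7 CPM in wt cells and 151, 136 and 170.3 CPM in KO#1 (95% confidence interval -0.13 to 0.76), and Ezh2, the methyltransferase, had 38.7, 66.8 and 46.4 and 54.0, 67.0 and 50.9 CPM (-0.33 to 0.67), with overlapping groups for both. Of 13 genes of the lamina and inner nuclear membrane, 0 were called and 2 had an unadjusted p under 0.05. Lamin B1 (Lmnb1) had 467, 237 and 246 and 265, 252 and 212 CPM (log2 fold change -0.38, interval -1.04 to 0.28), and without wt replicate 1, the highest library, it was 0.01. Emerin (Emd) had 27.5, 43.9 and 42.4 and 20.7, 18.1 and 87.5 CPM, and the interval was -0.80 to 1.12. KO#1 replicate 3 alone lay above the wt libraries for Emd, and without it the log2 fold change was -0.98 (adjusted p = 0.142). Syne2, a nesprin that ties the envelope to the cytoskeleton, came closest to a call (112, 70.5 and 97.8 against 53.1, 53 and 19.4 CPM, adjusted p = 0.0603). DESeq2 called 0 PRC2 genes and 1 lamina gene, lower.

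Few members of the metabolic and stress lists were called. Cholesterol synthesis had 4 of 20 called higher (20.0%, against 3.99% of all genes) and 0 lower, with a median log2 fold change of 0.33. Pmvk, the phosphomevalonate kinase, had 18.7, 20.5 and 15.0 CPM in wt cells and 28.8, 45.3 and 53.9 CPM in KO#1 (log2 fold change 1.25, SE 0.25, adjusted p = 0.00384, edgeR). Fdps (44.6, 54.7 and 36.5 against 65.5, 84.9 and 186 CPM) and Hsd17b7 (4.26, 5.14 and 4.33 against 12.0, 4.17 and 18.9 CPM) were called as well, and in both KO#1 replicate 3 was the highest. KO#1 replicate 2 was below all wt libraries for Hsd17b7. Without KO#1 replicate 3 the log2 fold changes were 0.73 for Fdps and 0.84 for Hsd17b7. The shares called among glycolysis genes (5.88%), p53 targets (6.25%) and G1 regulators (6.25%) lay near the 6.67% of all genes, and those of apoptosis and of antigen presentation genes were 13.3% and 12.5%. Glycolysis had 1 of 17 called, the isomerase Gpi1, with 554, 442 and 553 and 189, 246 and 256 CPM (log2 fold change -1.16, SE 0.24, adjusted p = 0.00531). Of 16 p53 targets and 15 apoptosis genes the same pro-apoptotic Pmaip1 (Noxa) was called lower (27.2, 47.4 and 49.8 against 16.9, 13.3 and 17.7 CPM, adjusted p = 0.00990), together with the survival factor Mcl1 (602, 555 and 569.7 against 297, 283 and 345 CPM, adjusted p = 0.00967). Of 16 G1 regulators the inhibitor Cdkn2b was called higher (1.31). Of 16 genes of antigen presentation and interferon 2 were called higher, the antiviral enzyme Oas1a (9.50, 8.81 and 7.17 against 21.1, 25.9 and 58.1 CPM, adjusted p = 0.000963) and Bst2 of chromosome 8 (0.93). The 13 protein genes of the mitochondrial genome had a median of -0.63, with 0 called by edgeR or DESeq2 and 1 under an unadjusted p of 0.05. The calls of Gpi1 and Mcl1 were lost with library totals alone (adjusted p = 0.0834 and 0.213) and in the fit to the 6 libraries alone, that of Mcl1 also without a filter on low counts. The fit to the 6 libraries alone ended the call of Pmvk as well (adjusted p = 0.0530). Calls ended on leaving out 1 library for Fdps without wt 1 or 3 or KO#1 3 (adjusted p = 0.0714 to 0.178), Hsd17b7 without wt 1, 2 or 3 or KO#1 1 or 3 (adjusted p = 0.0574 to 0.202), Pmaip1 without wt 3 (adjusted p = 0.0583), Cdkn2b without wt 3 or KO#1 1 (adjusted p = 0.0823 to 0.123) and Bst2 without wt 1 or 3 or KO#1 2 or 3 (adjusted p = 0.0525 to 0.169).

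Markers of other cell types were examined as further checks on the samples. Primitive endoderm had 2 of 12 called higher (16.7%, against 3.99% of all genes) and 0 lower, with 7 under an unadjusted p of 0.05, a median log2 fold change of 1.10 and 3 called higher by DESeq2. The 2 were Hnf4a (1.64, 1.19 and 3.67 against 11.3, 10.0 and 3.56 CPM, adjusted p = 0.0258 in edgeR) and Dab2 (1.64, 1.01 and 0.583 against 4.43, 2.29 and 2.92 CPM, adjusted p = 0.0248). For Hnf4a KO#1 replicate 3 lay inside the wt range. With the fibroblast score as a covariate, neither Hnf4a nor Dab2 was called. The defining factors of the lineage were low, with Gata6 at 0.328, 0.0917 and 0.0833 CPM in wt cells and 0.912, 1.04 and 0.292 CPM in KO#1 and Sox17 at 0.983, 0.459 and 0.50 and 0.130, 0.417 and 0.233 CPM. The basement membrane genes Col4a1 and Col4a2, both on chromosome 8, had log2 fold changes of 1.36 and 1.32 and were not called. Of the neural list, 5 of 8 genes were tested, and 1 of them (20.0%), the intermediate filament gene Nes, was called higher (15.4, 13 and 13.4 against 21.6, 37.8 and 22.5 CPM, adjusted p = 0.0280). Trophectoderm (10 tested), two-cell-like genes (15), mesendoderm (2), epithelial junctions and keratins (10), mesenchymal transition (8) and blood cells (3) had 0 called by edgeR or DESeq2, with 5, 1, 1, 2, 2 and 2 genes under an unadjusted p of 0.05. The list of sex chromosome genes (5 tested) had 0 called and 0 under that limit. Calls ended on leaving out 1 library for Hnf4a without wt 1 or 2 or KO#1 1 or 2 (adjusted p = 0.0693 to 0.116), Dab2 without wt 2 or 3 or KO#1 1 (adjusted p = 0.0799 to 0.166) and Nes without wt 1, 2 or 3 or KO#1 2 (adjusted p = 0.0505 to 0.148).

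KO#1 and wt cells were also sequenced at 24 h of induction, in libraries that share none with those of 0 h but come from the same clones. At 24 h, 1636 genes were called between KO#1 and wt cells (9.84% of those tested). Of the 663 genes called higher at 0 h, 621 had the same sign at 24 h (93.7%) and 362 were called with it (54.6%). Of the 445 called lower, 376 had the same sign (84.5%) and 183 were called with it (41.1%). Over all genes tested, 62.2% had the same sign at both times and 8.46% were called at 24 h with the sign of 0 h. Of the 93 processed pseudogenes called higher at 0 h, 78 were called higher at 24 h (83.9%). The chromosome 8 median was 0.47 at 24 h, and 51 of the 96 chromosome 8 genes called higher at 0 h were called higher again. The log2 fold change of Nod1 at 24 h was -5.11, of Myo7a -4.09, of Baiap2l1 7.11, of Ehd3 5.60 and of Hmga1 -2.16. Olig2 and Ubd had no count in KO#1 at 24 h either, with means of 10.9 and 3.31 CPM in wt cells.

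Few genes were called for a difference in the size of the KO#1 effect between the times. A difference that was not called is not shown to be absent. The difference itself was called by edgeR's interaction test for 65 genes (0.391%), of which 32 were among the 1108 called at 0 h. Of the named genes these were Spry2, Sox11, Smyd1 and Cyba. Spry2 had a log2 fold change of -3.23 at 0 h and -0.64 at 24 h (difference 2.59, adjusted p = 0.00358), and Sox11 had -4.92 and -1.81 (difference 3.11, adjusted p = 0.00358). Smyd1 had 4.79 at 0 h and 0.37 at 24 h (adjusted p of the difference 0.00358), and Cyba had -1.49 and 0.66 (adjusted p 0.0211). For Dusp6 the values were -1.66 and 0.15, and the difference did not pass (adjusted p = 0.0533).

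**Figure D5:**
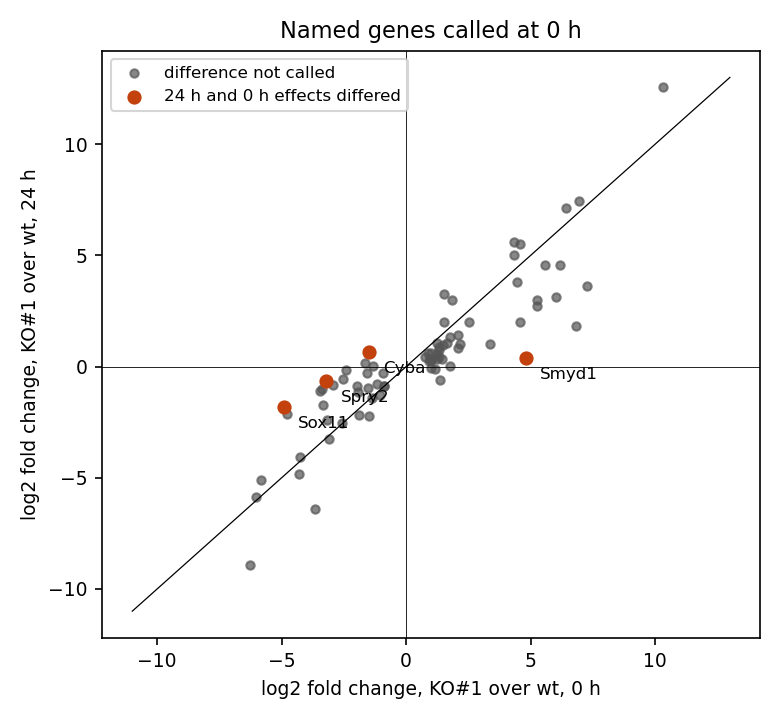
log2 fold change of KO#1 over wt at 24 h against that at 0 h for the 78 named genes called at 0 h that had counts in all 4 groups, with the line of equal change. The 4 genes in orange differed between the times in edgeR's interaction test.

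Beside these, the libraries labelled KO#2 give the values of another KO clone at 0 h against the same wt libraries. Their Hmga2 level at 0 h was 4.10, 1.84 and 8.24 CPM, below all wt libraries (log2 fold change -1.90, adjusted p = 0.0230, edgeR). At 24 h it was 10.4, 3.02 and 3.47 CPM against 5.86, 5.51 and 5.93 CPM in wt cells. The ranges overlapped through replicate 1 alone, and these libraries are therefore named by their label. KO#1 at 24 h had 3.67, 2.25 and 0.871 CPM, below all wt libraries of 24 h. Hmga2 was not called there (log2 fold change -1.36, adjusted p = 0.220, edgeR). In the main fit at 0 h Hmga2 was called for the libraries labelled KO#2 but not for KO#1 (adjusted p = 0.124). Against wt at 0 h, 6326 genes (38.1%) were called for the libraries labelled KO#2 and 1108 (6.67%) for KO#1. Since both comparisons share the 3 wt libraries, a likeness between them is not independent of the wt values. The log2 fold change of KO#1 and of the libraries labelled KO#2 was -5.82 and -5.28 for Nod1, -4.92 and -3.81 for Sox11, 6.43 and 5.81 for Baiap2l1 and -1.88 and -3.41 for Hmga1. For other genes the values lay far apart, with -3.20 and -0.40 for Znf41-ps, 1.31 and -0.62 for Fdps and 1.23 and -0.02 for Kars. These genes were chosen after their values were seen. On chromosome 8 the medians were 0.50 and -0.24.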

How the data were processed

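The 18 libraries were stranded, paired-end libraries of total RNA. The authors trimmed reads with Trim Galore, removed ribosomal sequences, aligned with STAR to GRCm38, marked duplicates with Picard and name Salmon and StringTie for quantification. DESeq2 is named in the submitters' processing notes. The annotation release and the use of strand in counting are not given in the sources used here. The authors deposited counts of reads per gene, whole numbers without normalization, for 45706 gene IDs. Of these 45143 matched GENCODE M21, which gave symbols, gene types and GRCm38 positions.

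Genes were kept by filterByExpr (minimum count 10) and tested with edgeR 4.0.16 in R 4.3.3, by the quasi-likelihood test on TMM-normalised counts. The 6 groups of the 18 libraries entered 1 model and share its estimate of the spread, and p-values were adjusted by the method of Benjamini and Hochberg over 16619 genes. A gene was called at an adjusted p under 0.05. A floor of 3 counts per library was used for genes without counts, and counting intervals are exact at 95%. Total counts of the 6 libraries ranged from 3466436 to 14613617. No pair of libraries held identical counts. The fit was also run on simulated data, and the outcome is not reported here.

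The members, the gene lists and the tests were chosen with earlier results of these data known. Named genes were Hmga2, Hmga1, Suz12, Ezh2, Lmnb1 and Emd, then called genes of at least 4 CPM with non-overlapping libraries: outside chromosome 8 and the fibroblast list the 12 largest rises and 12 largest falls among protein-coding genes and 3 each among others, and on chromosome 8 the 8 most expressed called higher and up to 4 called lower. To these were added the 6 fibroblast genes of largest change, called and defining members of the lists, and protein-coding genes with at most 3 counts in each library of one group and at least 4 CPM in each of the other. Alternatives were other size factors, other filters on low counts, DESeq2 1.42.0, a fit to the 6 libraries alone, a replicate block, a stricter threshold, a minimum fold change, protein-coding genes alone, the fibroblast score as a covariate, libraries thinned to the smallest total, and each library left out in turn. Promoter sequences came from RefSeq. A called member of the cholesterol synthesis list is counted but not reported here.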

Additional observations from a re-analysis of the deposited data

Results flagged for a closer look

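For 4 named genes the KO#1 effect at 24 h differed from that at 0 h by edgeR's interaction test. The difference (24 h minus 0 h, log2 scale) was -4.42 for Smyd1, 3.11 for Sox11 and 2.59 for Spry2, each with an adjusted p of 0.00358, and 2.15 for Cyba with an adjusted p of 0.0211. Cyba was called lower in KO#1 at 0 h and was not called at 24 h, where its log2 fold change was 0.66.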

How the results depend on the processing

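Of the 83 named genes called, all kept their sign in the alternatives run and 46 stayed past the threshold in each of them (50 in each fit that left out 1 library). Library totals alone gave 230 genes called lower and a chromosome 8 median of 0.64. Without a filter on low counts, 10 fibroblast genes were called, the chromosome 8 median was 0.34 and Hmga2 was called at -1.71. With at least 10 counts in each library 497 genes were called, 279 higher and 218 lower, 417 of them outside chromosome 8 and the fibroblast list. The 6 libraries alone gave 441 (269 higher, 172 lower, 407 outside), with 32 called higher on chromosome 8 and 0 fibroblast genes by edgeR. An adjusted p under 0.01 gave 501 (314 higher, 187 lower, 462 outside), with 37 on chromosome 8 and 1 fibroblast gene. With the fibroblast score as a covariate Hmga2 was called at -2.76. Leaving out 1 library at a time gave 598 to 937 genes called, 356 to 594 higher, 242 to 373 lower, 46 to 83 on chromosome 8, 1 to 4 fibroblast genes, 550 to 847 outside, a chromosome 8 median of 0.43 to 0.51 and Hmga2 at -2.59 to -1.24. Over the same fits Emd ranged from -0.98 (without KO#1 replicate 3) to 0.52, with -0.0046 without wt replicate 1, and Lmnb1 from -0.55 to 0.014 (without wt replicate 1), both with a reversal of sign, and Il6, with both group means under the mean floor, reversed to -0.13 in thinned libraries. Except where fewer samples or genes entered a fit, the cause was not tested.

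Over all genes, replicate numbers did not pair the samples: deviations of same-numbered wt and KO#1 libraries correlated at 0.22, -0.02 and 0.12, and wt replicate 2 correlated best with KO#1 replicate 3. The fibroblast signal did fall from replicate 1 to replicate 3 in both genotypes. With a replicate block 1127 genes were called, and with the block on the 6 libraries alone 759, of which 426 were higher and 4 were fibroblast genes, with Hmga2 called at -1.98 (adjusted p = 0.0101, edgeR), Gpi1 and Mcl1 not called and Emd reversed to -0.19. Depth limits genes under about 1 CPM, above all in wt replicate 1, where 3 counts equal 0.983 CPM.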
